A study of Mus musculus with 34 samples.

Results

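The JunD loci of resting and KLA-treated C57BL/6 macrophages were built from the 2 JunD peak lists of this strain, one after vehicle and one after KLA. Peaks of either list that shared 1 bp or more were taken as 1 locus, which gave 35983 loci. Of these, 16342 held a peak in the KLA list only (45.4% of the loci, called KLA-only), 15279 held a peak in both lists (shared) and 4362 held a peak in the Veh list only (12.1%, called Veh-only). The whole series analysed here has 30 peak lists with 596383 peaks, and 20 of those lists were used.

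The cells were TGEMs, macrophages that move into the peritoneum of a mouse after thioglycollate is injected, taken from male mice that the methods give as 8 weeks old. The genotype label reads C57Bl/6EiJ, whereas the methods name C57Bl/6J. One group received Veh, which was PBS, and the other received KLA for 1 h. Both were fixed with a protein crosslinker followed by formaldehyde and immunoprecipitated with the same JunD antibody. JunD lists of BALB/cJ TGEMs (label Balb/cJ, Veh and KLA for 1 h) and of PPARg knockout TGEMs on a C57Bl6 background (label PPARgKO, Veh) served as lists that had no part in defining the classes. The labels do not say how the knockout was made.

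Each list is the outcome of the irreproducible discovery rate (IDR), which keeps peaks that rank alike in replicate experiments, so a condition has 1 list and no replicates. No test between mice or experiments could be made. Shares are given with 95% Wilson intervals and differences of shares in percentage points with 95% Newcombe intervals. Both cover counting error over loci only, and neighbouring loci are not independent. A locus without a peak in a list is one that did not pass the threshold there, which is not the same as an unbound locus. The lists hold no transcripts, so the labelled cell type was not checked against marker genes.

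The deposited count of a peak is not scaled to library size, and the 2 JunD lists differ in it. The KLA list held 31640 peaks with a median count of 277 and a lowest count of 120, whereas the Veh list held 19653 peaks with a median of 50.0 and a lowest of 27. Counts were therefore turned into percentile ranks within each list, where 0 is the weakest peak and 100 the strongest. Whether the number of KLA-only loci rests on this difference in count was not tested. Lists cut to equal length left 7743 KLA-only, 11900 shared and 7743 Veh-only loci. Equal lengths give near-equal numbers in the KLA-only and Veh-only classes by construction, so these counts cannot decide the question.

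JunD is a member of AP-1, a family of basic leucine zipper proteins that bind DNA as dimers. Each member, or monomer, pairs with another Jun, Fos or ATF protein through its zipper, and the dimer reads a short palindrome, the TRE, or a longer relative, the CRE. JunD is present in resting macrophages, while Fos and JunB are products of immediate-early genes that appear after a stimulus. KLA is a purified bacterial lipid A that activates TLR4, the receptor for bacterial endotoxin, and starts the NFkB, MAP kinase and interferon responses. PU.1 and CEBPa are lineage factors of macrophages, and PPARg is a nuclear receptor for lipids.

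Sequences from the centre of the leading loci are shown because the classes differed in the motifs they hold. They were read 5′ to 3′ on the plus strand of GRCm38, and capitals mark an exact match to one of the 9 motifs searched.
Zbtb32, KLA-only, chr7:30594606-30594705: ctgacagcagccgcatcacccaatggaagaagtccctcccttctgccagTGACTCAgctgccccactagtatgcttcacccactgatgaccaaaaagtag
Fos, KLA-only, chr12:85513784-85513883: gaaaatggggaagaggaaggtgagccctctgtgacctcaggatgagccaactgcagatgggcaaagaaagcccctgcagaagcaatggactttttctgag
Clic1, Veh-only, chr17:35051906-35052005: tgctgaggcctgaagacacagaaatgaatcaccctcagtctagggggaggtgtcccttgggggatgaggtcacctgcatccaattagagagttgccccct
Dppa3, Veh-only, chr6:122654461-122654560: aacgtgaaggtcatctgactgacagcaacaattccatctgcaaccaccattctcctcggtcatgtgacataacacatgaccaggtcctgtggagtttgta
Tmbim1, largest rank rise, first TRE, chr1:74297434-74297463: aggggctgcagTGACTCActgtctggggtg
Tmbim1, largest rank rise, second TRE, chr1:74297483-74297512: ggctcagctgcTGACTCAcaggcctccccc
Jun, largest rank fall, chr4:95215178-95215277: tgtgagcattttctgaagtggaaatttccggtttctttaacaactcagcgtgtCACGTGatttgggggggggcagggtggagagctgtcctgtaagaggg

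The first of these lies in an intron of Zbtb32 and the Clic1 locus in an intron of Clic1. The Tmbim1 sites lie in an exon that belongs to the UTR of an annotated transcript, so only the 30 bases around each are shown. The other 3 are intergenic and carry the name of the nearest gene. The Zbtb32 and Tmbim1 sequences hold the TRE and the Jun sequence holds an E-box. The other 3 hold none of the 9 motifs in these 100 bases, which says only that the exact letters are not in this window.

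KLA-only loci were the weaker part of the KLA list, and Veh-only loci the weaker part of the Veh list. The median percentile rank in the KLA list was 35.8 at KLA-only loci and 66.9 at shared loci. In the Veh list it was 22.1 at Veh-only loci and 58.9 at shared loci. Of the loci in the weakest decile of the KLA list, 80.6% (79.1 to 81.9) had no Veh peak, and of those in the strongest decile 12.9% (11.8 to 14.2) had none. The corresponding shares of the Veh list without a KLA peak were 55.7% (53.6 to 57.9) and 0.714% (0.426 to 1.19), the latter being 14 of 1962 loci. A strong peak absent from the other treatment was thus more frequent in the KLA list, with 410 of 3167 loci in its strongest decile. The KLA peaks were matched to the shorter list, of 19653 peaks, and the Veh peaks to one of 31640. The part of list length in this difference was not tested.

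The 10 strongest KLA-only loci lay 1.71 to 111 kb from the nearest TSS and had JunD counts of 882 to 1039. Their nearest genes include Fos itself, the ezrin gene Ezr, the hyaluronan receptor gene Cd44, the immediate-early gene Ier5 and Fgd2, an activator of the small GTPase Cdc42. All 10 held a peak of ATF3, Jun, Fos, Fra2 (FosL2) and JunB in the KLA lists, 9 held CEBPa and 8 held PU.1 in KLA. In Veh, 4 held ATF3, 4 held PPARg, 3 held PU.1 and 1 held Jun. JunD itself had a peak at all 10 in BALB/cJ KLA, at 5 in BALB/cJ Veh and at 1 in the PPARg knockout. The TRE was present in the central 200 bp of 7.

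The Zbtb32 locus (chr7:30594493-30594817) lay 1.71 kb upstream of the nearest annotated start of this gene for a zinc finger repressor. Its JunD count was 1039 in KLA, a percentile rank of 99.9. The same locus carried counts of 289 for ATF3, 181 for Fos, 112 for Fra2, 92 for JunB and 75 for Jun in KLA. In Veh only PU.1, with 165, and PPARg, with 75, had a peak there among the other factors. BALB/cJ had a JunD peak in both lists, with 191 in KLA and 36 in Veh.

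The locus 39.9 kb downstream of the Fos start (chr12:85513725-85513942) had a JunD count of 1034 in KLA and no peak of any other factor in the Veh lists of C57BL/6. In KLA it held all 5 other monomers, from 110 for Jun to 378 for ATF3, and also PU.1 with 183 and CEBPa with 111. BALB/cJ had a JunD peak there in both lists, with 244 in KLA and 51 in Veh. Among the 27 loci assigned to Fos, 14 were KLA-only, 9 shared and 4 Veh-only.

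Strong Veh-only loci were a small group. The 10 strongest had counts of 111 to 173 in Veh, percentile ranks of 92.4 to 99.3, and included loci near Clic1, Dppa3, Klf6 and Serpinb2, the gene of a plasminogen activator inhibitor. PPARg held a peak at all 10 in Veh, ATF3 and Jun at 9 each and CEBPa at 8. In KLA, where JunD had no peak, ATF3 still held one at 7 of the 10, Fos and PU.1 at 6 each, and Jun, JunB and CEBPa at 4 each. The strongest, with a JunD count of 173, held all 5 other monomers in KLA, from 82 for JunB to 474 for ATF3. All 10 had a JunD peak in both BALB/cJ lists, with counts of 63 to 249 in BALB/cJ KLA, and in the PPARg knockout.

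Loci without the other monomers in KLA were also among them. The intronic Clic1 locus (chr17:35051840-35052070) had a JunD count of 154 in Veh. ATF3 with 140, Jun with 74, Fra2 with 42 and Fos with 19 had peaks there in Veh, and none of the 5 other monomers had one in KLA. PU.1 was present in both treatments, at 797 in Veh and 223 in KLA, in lists with median counts of 259 and 62.0. In BALB/cJ the JunD count was 169 in Veh and 148 in KLA. Upstream of Serpinb2 (chr1:107496909-107497120) the pattern was similar, with a JunD count of 139 in Veh, ATF3, Jun, Fra2, PU.1, CEBPa and PPARg in Veh, and no other factor in KLA.

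Veh-only loci lay at promoters more often than either other class. Within 1 kb of the start of a protein-coding gene were 29.3% of Veh-only loci (1279 of 4359), 15.4% of shared loci (2349 of 15277) and 13.3% of KLA-only loci (2174 of 16341). Veh-only loci exceeded shared loci by 14.0 points (12.5 to 15.4), and KLA-only loci were below them by 2.07 points (the difference was -2.07, interval -2.85 to -1.30). The latter difference was -0.14 points (-0.98 to 0.69) with an IDR of 0.01 and 0.27 points (-0.67 to 1.20) in the stronger 50% of each list, so its direction turned there. The median distance to a TSS was 10275 bp at Veh-only, 15981 bp at shared and 16643 bp at KLA-only loci. The GC content of the central 200 bp had a median of 51.5%, 49.0% and 47.0% in the same order.

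Apart from promoters, the classes had a similar makeup. Introns held 45.1% of KLA-only, 43.2% of shared and 37.7% of Veh-only loci, and intergenic DNA held 39.6%, 39.1% and 30.6%. Exons outside the promoter windows held 2.05% to 2.34% of each class.

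The promoter share also depended on peak strength, so the classes were compared within quartiles of a list by count. In the weakest quartile of the Veh list, 34.0% of Veh-only and 21.5% of shared loci were at a promoter, a difference of 12.5 points (10.0 to 14.9). In the strongest quartile the shares were 6.93% and 8.37%, with an interval of the difference of -5.07 to 5.29, so the excess was not detectable there with 101 Veh-only loci. In the weakest quartile of the KLA list, 17.8% of KLA-only and 30.4% of shared loci were at a promoter. In the strongest quartile of the KLA list they were 7.91% and 6.88%, with an interval of the difference of -0.29 to 2.49.

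The other AP-1 monomers differed between the classes in both treatments. In KLA, Fos held a peak at 56.7% of KLA-only, 77.8% of shared and 12.6% of Veh-only loci, a difference between the first and the last of 44.0 points (42.8 to 45.3). JunB in KLA was at 27.3%, 53.4% and 3.85%, and Fra2 in KLA at 20.7%, 42.4% and 3.23%. Jun in KLA was at 36.9%, 67.8% and 7.75%. ATF3, which had the longest AP-1 list in KLA with 36745 peaks, was at 80.9%, 93.3% and 36.3%. For each of these monomers the order was shared, then KLA-only, then Veh-only.

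In Veh the order of KLA-only and Veh-only loci was the opposite. ATF3 in Veh was at 23.3% of KLA-only, 86.6% of shared and 49.7% of Veh-only loci, and Jun in Veh at 12.2%, 67.0% and 30.1%. Fra2 in Veh was at 2.06%, 26.5% and 9.35%. Fos and JunB had short Veh lists of 1804 and 463 peaks, and reached no more than 5.99% and 1.98% of any class. The plot of peaks of other factors by class shows both treatments.

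**Figure D1:**
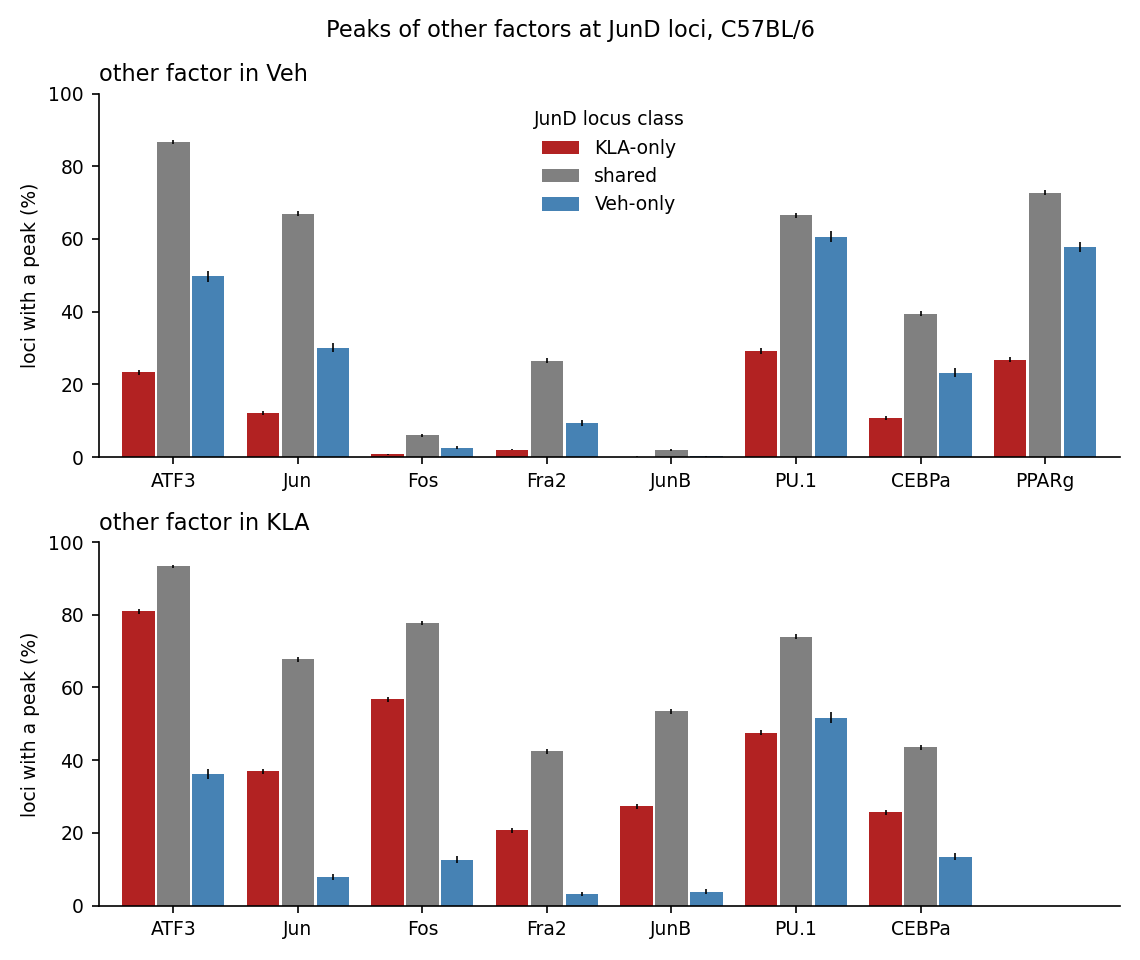
Share of JunD loci (vertical axis, %) with a peak of each of 8 other factors in Veh (top) and KLA (bottom), for KLA-only, shared and Veh-only loci. Bars are shares and lines are 95% Wilson intervals over loci, PPARg was given in Veh only, and Fos in KLA stands at 56.7%, 77.8% and 12.6% of the classes.

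Presence of the same monomer in both treatments separated the classes further for ATF3 and Jun. Of KLA-only loci, 59.6% held ATF3 in KLA but not in Veh and 21.2% held it in both. The same shares were 56.2% and 0.490% for Fos. Fos was in KLA but not in Veh at 72.4% of shared and 11.8% of Veh-only loci. Over all loci this share was 57.7%, so KLA-only loci were near it and below shared loci. At Veh-only loci Jun was present in Veh but not in KLA at 26.8%, and in KLA but not in Veh at 4.45%. Shared loci held ATF3 in both treatments at 83.1% and Jun in both at 51.2%.

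Counting monomers gave the same picture from another side. In KLA, 29.5% of shared loci (28.8 to 30.2) held all 5 other monomers, against 8.22% of KLA-only loci (7.81 to 8.66) and 0.321% of Veh-only loci (0.191 to 0.538). No other monomer was found in KLA at 12.0% of KLA-only, 3.67% of shared and 55.7% of Veh-only loci. JunD without any other monomer in either treatment occurred at 9.98% of KLA-only, 1.28% of shared and 28.2% of Veh-only loci.

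The gap between KLA-only and shared loci for Fos in KLA went with JunD peak strength. Within quartiles of the KLA list, from weakest to strongest, Fos in KLA was at 25.5%, 58.6%, 84.7% and 96.7% of KLA-only loci. At shared loci of the same quartiles it was at 24.5%, 58.7%, 85.9% and 98.6%. The difference had an interval that included 0 in the first 3 quartiles and was -1.83 points (-2.78 to -1.03) in the strongest. A KLA-only locus and a shared locus of like JunD strength thus held Fos in KLA at nearly the same rate. The other KLA lists kept gaps in most quartiles. KLA-only loci differed from shared loci by -4.78 to -9.66 points for Jun in KLA, by -2.56 to -8.26 for Fra2 and by -0.92 to -6.31 for ATF3. For JunB the difference ran from -0.52 points in the second quartile (interval -2.37 to 1.31) to -10.2 in the strongest, and for CEBPa from -5.51 to -9.21. PU.1 in KLA kept the largest, at -21.8, -23.4, -18.0 and -13.7 points from the weakest to the strongest quartile, against -26.4 over all loci.

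The resting lists were compared in the same quartiles. PU.1 in Veh was at 30.7%, 28.7%, 27.3% and 29.7% of KLA-only loci from the weakest to the strongest quartile, and at 63.7% to 68.8% of shared loci. PPARg in Veh was at 25.0% to 34.8% of KLA-only and at 65.0% to 80.5% of shared loci. The difference for PU.1 was largest in the strongest quartile, at -39.1 points (-41.4 to -36.6).

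Over all loci, PU.1 in Veh was at 29.2% of KLA-only, 66.5% of shared and 60.6% of Veh-only loci. In KLA the shares were 47.6%, 73.9% and 51.7%. CEBPa in Veh was at 10.8%, 39.5% and 23.2%, and in KLA at 25.7%, 43.5% and 13.5%. PPARg in Veh was at 26.8%, 72.7% and 57.8%. At KLA-only loci PU.1 was present in KLA but not in Veh at 20.7% and the reverse was seen at 2.35%. For CEBPa the same shares were 16.6% and 1.63%.

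Veh-only loci and shared loci of like strength in the Veh list were compared for PU.1 and PPARg at rest. In the weakest quartile of the Veh list PU.1 in Veh was at 56.1% of Veh-only and 52.3% of shared loci, a difference of 3.79 points (1.05 to 6.52). For PPARg the difference there was -1.48 points (-4.22 to 1.27). In the strongest quartile, with 101 Veh-only loci, PPARg was at 80.2% of Veh-only and 87.7% of shared loci, a difference of -7.51 points (-16.4 to -0.84). PU.1 was at 71.3% and 76.4% there, with an interval of the difference of -14.7 to 2.87. Fos in KLA separated the loci of the weakest quartile by -49.9 points (-52.1 to -47.7), with 8.78% of Veh-only and 58.7% of shared loci.

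Before KLA, 29.4% of the KLA-only loci (28.7 to 30.1) already held another AP-1 monomer in a Veh list. A further 25.7% held no monomer but PU.1, CEBPa or PPARg. The remaining 44.8% (44.1 to 45.6), 7324 loci, had no peak of the 8 other factors in Veh. After loci with a JunD peak in the Veh lists of BALB/cJ or the PPARg knockout were also taken out, 37.3% (36.6 to 38.1) were left, 6097 loci without any peak at rest in the lists compared. At shared loci the share without a peak of the 8 other factors in Veh was 1.30%, and at Veh-only loci it was 6.97%.

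Motifs were searched as exact letters on both strands of the central 200 bp: TGACTCA (TRE), TGACGTCA (CRE), AGGAAGT (PU.1), TTGCNNAA (CEBP), GGAANTTCC (NFkB), GAAANNGAA (IRF), TGTGGTT (Runx), CACGTG (E-box) and CCCGCCC (Sp1). Matches of different motifs may overlap and each was counted. Windows of the same length 1 kb to each side of the same loci gave the background.

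The TRE was present at 35.5% of shared (34.7 to 36.3), 29.8% of KLA-only (29.1 to 30.5) and 10.4% of Veh-only loci (9.57 to 11.4), with 3.66% to 3.95% in the flanking windows. The CRE was rare, at 1.96%, 0.936% and 1.72%, against flanks of 0.126% to 0.184%. Most of the TRE matches lay within 25 bp of the locus centre in each class, from 54.4% at KLA-only to 56.4% at Veh-only loci. The base on either side of the TRE had a similar makeup in the 3 classes. A T before it, read on the strand of the match, was the least frequent at 5.89% to 8.65%.

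Peak strength changed the order of KLA-only and shared loci for the TRE. In the weakest quartile of the KLA list 25.6% of KLA-only and 16.2% of shared loci held it, a difference of 9.33 points (7.30 to 11.3). In the strongest quartile the shares were 38.2% and 49.1%, a difference of -10.9 points (-13.4 to -8.32). Veh-only loci were below shared loci in all 4 quartiles of the Veh list, by between 16.6 and 27.3 points (differences of -16.6 to -27.3).

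The TRE went with the number of other monomers in KLA. At KLA-only loci with 0, 1, 2, 3, 4 and 5 other monomers it was present at 18.3%, 23.2%, 30.3%, 35.2%, 36.1% and 42.3%. At shared loci the share went from 6.61% with 0 to 53.8% with 5. KLA-only loci with no other monomer thus held the TRE at a higher rate than the corresponding shared loci, and those with all 5 at a lower rate.

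The NFkB motif was most frequent at KLA-only loci, with 459 of 16340 or 2.81% (2.57 to 3.07). Shared loci held it at 1.22% (1.06 to 1.41) and Veh-only loci at 0.574% (0.389 to 0.845), while flanking windows held it at 0.350% to 0.441%. The excess of KLA-only over shared loci was 1.53 points (0.93 to 2.03) in the weakest and 3.12 points (2.19 to 4.21) in the strongest quartile of the KLA list, where 4.58% of KLA-only loci held it. It was present at loci over 1 kb from a TSS (2.79% against 1.21%) and at those within 1 kb (2.94% against 1.28%). The IRF motif was at 10.4% of KLA-only, 8.04% of shared and 6.24% of Veh-only loci, the last close to its flanks at 6.46%.

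The Sp1 and E-box motifs, both known from promoters, were most frequent at Veh-only loci. Sp1 was at 14.9% of Veh-only, 7.34% of shared and 5.14% of KLA-only loci, and the E-box at 8.72%, 5.86% and 3.56%. In the weakest quartile of the Veh list Veh-only loci exceeded shared loci by 7.95 points (6.10 to 9.81) for Sp1. The interval included 0 in the third (-1.04 to 4.15) and strongest quartile (-0.84 to 9.46). For the E-box the excess was 2.19 points (0.83 to 3.57) in the weakest quartile, and the interval included 0 only in the strongest (-0.14 to 11.7). Restricting to loci over 1 kb from a TSS brought the Sp1 difference between KLA-only and Veh-only loci to -1.47 points (-2.27 to -0.76), while the E-box difference was still -4.10 points (-5.11 to -3.18). Within 1 kb of a TSS, Sp1 was at 21.1% of KLA-only and 40.8% of Veh-only loci. The difference there was -19.7 points (-22.9 to -16.5) for Sp1 and -6.23 (-8.34 to -4.24) for the E-box. The PU.1 motif was at 23.3% of Veh-only, 23.5% of shared and 16.7% of KLA-only loci. Away from promoters it was more frequent at Veh-only than at shared loci, 29.0% against 25.1%. Within 1 kb of a TSS it was less frequent at Veh-only loci, 9.70% against 14.7%. Within quartiles of the Veh list the interval of this difference included 0 in each quartile. The plot of motif matches gives all 9 motifs.

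**Figure D2:**
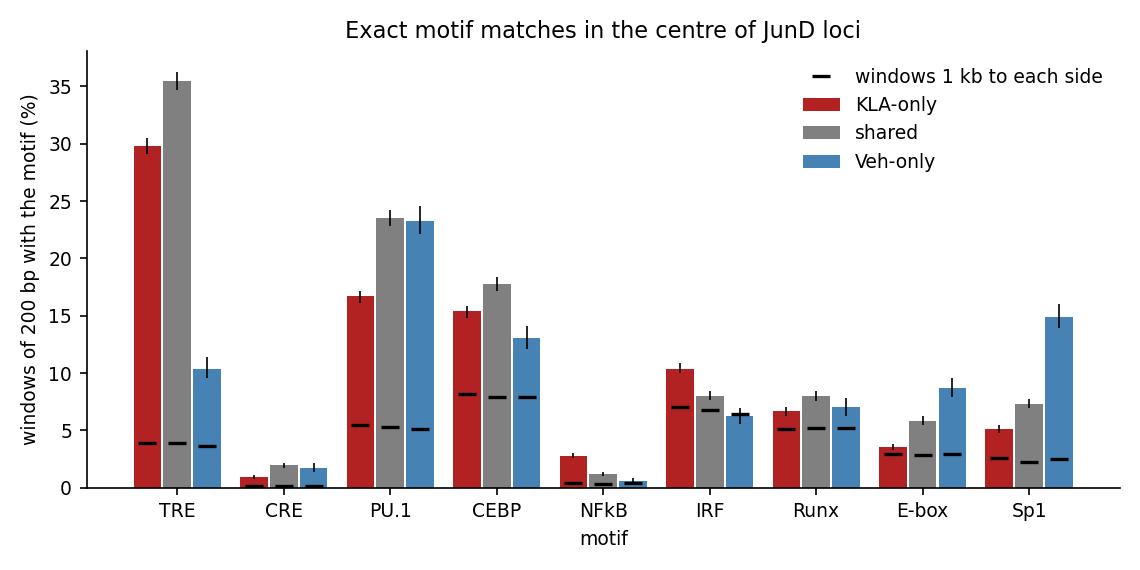
Share of JunD loci (vertical axis, %) with an exact match to each of 9 motifs in the central 200 bp, by class. Bars are shares, thin lines 95% Wilson intervals over loci, and black dashes the share in windows 1 kb to each side, the TRE being at 29.8%, 35.5% and 10.4% of KLA-only, shared and Veh-only loci.

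Shared loci were compared by the change in percentile rank from Veh to KLA. The change had a median of 2.51 points with quartiles of -9.68 and 19.5, and the ranks in the 2 lists had a correlation of 0.57 over 15279 loci, given as a description. With a change of 25 points or more, 2993 loci (19.6%) moved up and 1477 (9.67%) moved down. These counts depend on the ranking, since lists of equal length gave 1536 risen and 2693 fallen loci, and ranks among shared loci only gave 2412 and 2269. Loci that moved up had a median rank of 27.1 in Veh and 75.9 in KLA, and loci that moved down 67.0 and 27.4.

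Loci that moved up and loci that moved down differ in JunD rank by the way they were chosen, so peaks of the other factors were compared over all of them and then within deciles of a JunD list. Over all of them, Fos in KLA was at 90.3% of the former and 49.6% of the latter, a difference of 40.7 points (37.9 to 43.5). The difference was 47.2 points (44.4 to 49.9) for Jun in KLA, 42.0 (39.3 to 44.7) for JunB and 33.4 (30.7 to 35.9) for Fra2. ATF3 in KLA was at 98.0% and 82.7%. The reverse held for the resting lists of PU.1, at 50.9% and 73.8%, and of PPARg, at 57% and 76.9%.

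At like JunD rank in KLA the excess of the other monomers was not found. Within deciles of the KLA list, with 1166 risen and 925 fallen loci in 5 deciles that held at least 10 of each, the mean difference for Fos in KLA was -5.88 points (-10.3 to -1.50). It was -8.39 points (-13.3 to -3.47) for Jun, -12.4 (-17.1 to -7.66) for JunB, -4.30 (-6.69 to -1.92) for ATF3 and -3.56 (-8.03 to 0.91) for Fra2. Within deciles of the KLA list none of these monomers was thus measured more often at risen loci. Deciles of the Veh list, with 1881 risen and 1136 fallen loci, gave the opposite. There the difference was 66.9 points (63.9 to 69.8) for Fos in KLA, 75.5 for Jun, 70.9 for JunB and 55.2 for Fra2. ATF3 in KLA was also more frequent at risen loci in that comparison. In either comparison the JunD rank in the other list still differs by the way the loci were chosen. PU.1 in Veh was still less frequent at risen loci, by -25.7 points (-30.5 to -20.9) within deciles of the KLA list and by -14.1 points (-18.2 to -9.86) within deciles of the Veh list. For PPARg in Veh the difference was -34.2 points (-38.8 to -29.7) within deciles of the KLA list but -4.41 points (-8.38 to -0.45) within those of the Veh list.

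PU.1 in KLA was at 69.5% of risen and 70.6% of fallen loci (difference -1.15 points, interval -3.97 to 1.72), and the difference was -13.2 points (-18.0 to -8.43) within deciles of the KLA list. CEBPa in KLA was at 46.3% of loci that moved up and 28.6% of those that moved down, a difference that became -4.07 points (-9.04 to 0.90) within those deciles. Within deciles of the Veh list the difference was 9.43 points (5.57 to 13.3) for PU.1 in KLA and 32.9 (29.0 to 36.8) for CEBPa in KLA. Over all risen and fallen loci the TRE was at 38.4% and 21.3%, NFkB at 2.17% and 0.474%, Sp1 at 4.18% and 11.6% and the E-box at 3.94% and 9.61%. Within deciles of the KLA list the difference was -0.18 points (-4.98 to 4.62) for the TRE, 0.88 (-0.17 to 1.92) for NFkB, -3.37 (-6.12 to -0.62) for Sp1 and -4.74 (-7.59 to -1.90) for the E-box. Within deciles of the Veh list it was 27.4 points (23.7 to 31.1) for the TRE, 2.38 for NFkB, -10.5 for Sp1 and -6.12 for the E-box. Promoters held 10.8% of risen and 17.9% of fallen loci, but within deciles of the KLA list risen loci were at promoters more often, by 6.13 points (2.48 to 9.77). Within deciles of the Veh list they were at promoters less often (difference -18.3 points, -21.6 to -15.1).

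Along the whole range of rank change the shares changed in steps of 10 points. Between falls of 60 to 70 points and rises of 80 to 90 points, Fos in KLA went from 40.7% to 100% of loci and Jun in KLA from 18.5% to 98.4%. PU.1 in Veh went from 74.1% to 43.5% and PPARg in Veh from 83.3% to 48.4%. The 2 outermost steps shown held 54 and 62 loci, and the JunD ranks in both lists move along these steps too.

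**Figure D3:**
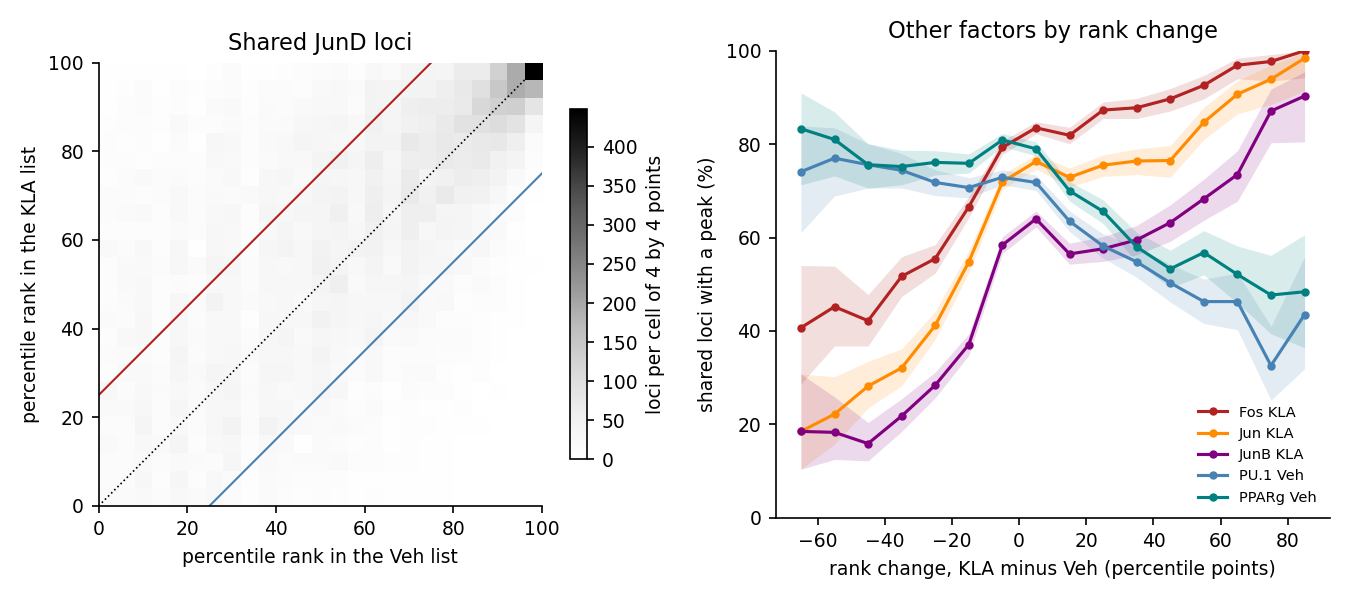
Left, number of shared JunD loci (grey scale) by percentile rank in the Veh list (horizontal) and in the KLA list (vertical), where the dotted line marks equal rank and the red and blue lines a change of 25 points up and down. Right, share of shared loci with a peak of another factor (vertical axis, %) against the rank change (horizontal axis, percentile points), with 95% Wilson intervals as bands, in steps with at least 20 loci, Fos in KLA running from 40.7% to 100%.

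The largest rise was at the Tmbim1 locus (chr1:74297303-74297624), with a count of 27 and a rank of 0.321 in Veh and a count of 740 and a rank of 96.5 in KLA. ATF3 had counts of 41 in Veh and 200 in KLA there, and Fos had 149 in KLA with no Veh peak. In BALB/cJ the JunD counts were 34 in Veh and 152 in KLA. A locus 17.5 kb upstream of Csf1, which encodes the growth factor of macrophages, rose by 93.6 points, from a count of 29 to one of 742. One 21.9 kb upstream of Sirpa, the receptor for CD47, rose by 90.4 points. All 10 loci with the largest rise held ATF3, Jun, Fos and JunB in KLA, 9 held Fra2 in KLA and 3 held PU.1 in Veh. All 10 also had a JunD peak in BALB/cJ KLA.

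At the other end stood a locus 163 kb upstream of Jun (chr4:95215045-95215409), with a count of 86 and a rank of 83.7 in Veh and a count of 133 and a rank of 2.96 in KLA. Its Jun peak, with 32, and its PU.1 peak, with 394, were found in Veh only. A neighbouring locus 161 kb upstream of Jun was Veh-only with a count of 93. An intronic locus of Runx1, a lineage transcription factor, had a rank of 76.5 in Veh and 1.48 in KLA. Of the 10 loci with the largest fall, all held ATF3, Jun and PPARg in Veh and 9 held PU.1 in Veh. In KLA, 1 held Jun, 2 held Fos and none held JunB. None of the 10 held the TRE, against 5 of the 10 with the largest rise.

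The 5 shared loci with the highest mean rank were near the top of both lists, with counts of 1044 to 1099 in KLA and of 224 to 262 in Veh. They were assigned to Tax1bp1, Cdc42bpg, Noct, Sfn and Itga5, the last encoding a subunit of the fibronectin receptor. All 5 held the TRE, ATF3, Jun and Fra2 in both treatments, PU.1 in both treatments, and JunD in both BALB/cJ lists and the knockout. Cdc42bpg was also the nearest gene of the locus with the third largest rise, from a rank of 1.31 to 95.9, and both loci lie in an intron of Ehd1.

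Loci were assigned to the nearest TSS of a protein-coding gene and counted for 9 gene lists, whose shares are read against 45.4% KLA-only and 12.1% Veh-only over all loci. The shared loci that moved are read against 19.6% up and 9.67% down over all shared loci. The plot of loci by nearest gene shows all lists.

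**Figure D4:**
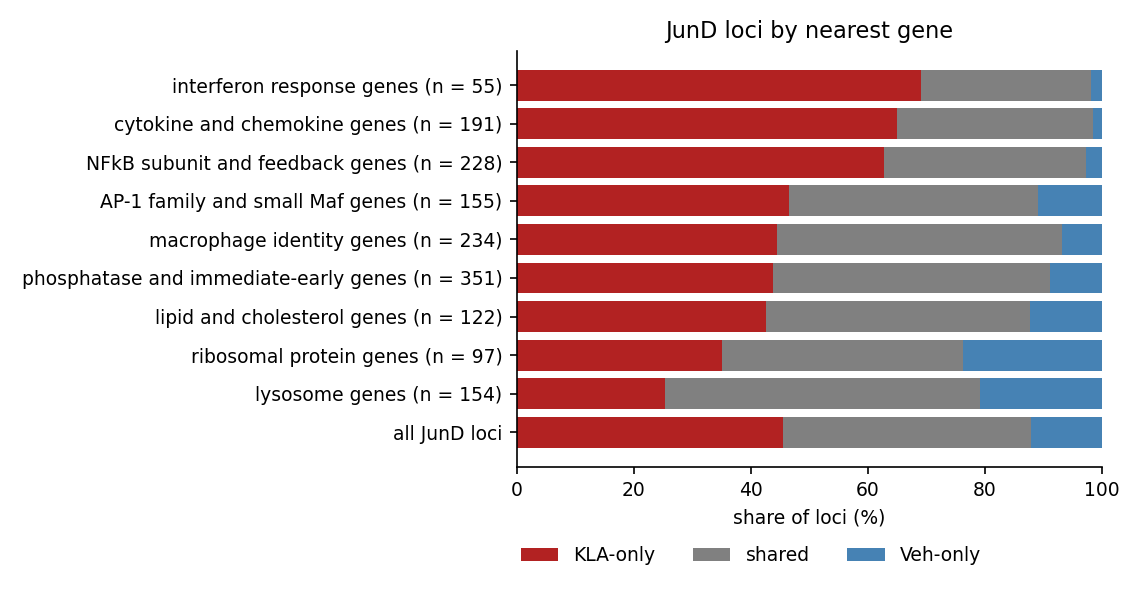
Share of JunD loci (horizontal axis, %) that were KLA-only, shared and Veh-only among loci whose nearest gene is in each of 9 lists and among all loci. The number of loci is given beside each list, and the KLA-only share runs from 69.1% for interferon response genes to 25.3% for lysosome genes.

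Cytokine and chemokine genes had 191 loci at 24 of 25 genes, of which 124 were KLA-only (64.9%, 57.9 to 71.3), 64 shared and 3 Veh-only. All 11 loci of Ccl5, a chemokine for T cells, and all 8 of Il27 were KLA-only. Il1a and Il1b, the interleukin-1 genes, had 13 loci each, of which 8 were KLA-only and 5 shared. Tnf had 5 KLA-only and 2 shared loci, and Il6 had 4 and 1. Of the shared loci on this list 25 moved up (39.1%) and 3 moved down (4.69%), with a median change of 18.3 points against 2.51 over all shared loci. The strongest KLA-only locus lay 3.32 kb downstream of the start of Ccl4, with a JunD count of 865 and all 5 other monomers in KLA. The locus 0.732 kb downstream of the Il1a start was one of the 3 that moved down, from a rank of 84.6 to 16.0. In BALB/cJ its JunD count was 73 in Veh and 112 in KLA, in lists with median counts of 43.0 and 49.0.

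NFkB subunit and feedback genes had 228 loci at 20 genes, of which 143 were KLA-only (62.7%, 56.3 to 68.7), 79 shared and 6 Veh-only. Tnfaip3, an inhibitor of NFkB signalling, had 46 loci, of which 36 were KLA-only and 10 shared. The strongest of them, 30.8 kb upstream, had a count of 841, the TRE and all 5 other monomers in KLA. Nfkb1, which encodes the p105 precursor, had 17 KLA-only loci of 18. Nfkbia, the gene of the inhibitor IkBa, had both kinds, since a locus 42.1 kb downstream rose by 80.8 points and one 3.75 kb downstream was Veh-only with a count of 95.

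Interferon response genes had 55 loci at 17 of 18 genes, of which 38 were KLA-only (69.1%, 56.0 to 79.7), 16 shared and 1 Veh-only. Rsad2, the antiviral viperin gene, had 7 KLA-only loci of 8. The strongest KLA-only locus lay at the start of Gbp2, an interferon-induced GTPase, with a count of 577, and held TRE, NFkB and IRF motifs.

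AP-1 family and small Maf genes were near the background, with 72 of 155 loci KLA-only (46.5%, 38.8 to 54.3) and 17 Veh-only (11.0%, 6.96 to 16.9). Fosl2, which encodes Fra2, had 11 KLA-only loci of 16, and Jun had 10 of 24. Jund itself had 1 KLA-only and 1 shared locus. Phosphatase and immediate-early genes were also near it, with 154 of 351 loci KLA-only (43.9%, 38.8 to 49.1). Klf6, a zinc finger transcription factor, had 71 loci, the most of any gene on the lists, 37 of them KLA-only.

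Macrophage identity genes had 104 of 234 loci KLA-only (44.4%, 38.2 to 50.8) and 16 Veh-only (6.84%, 4.25 to 10.8), the latter below 12.1%. Among their 114 shared loci 21 moved up (18.4%), near the share over all shared loci, and 3 moved down (2.63%). One of the risen loci lay 5.62 kb upstream of Spi1, which encodes PU.1, with ranks of 11.8 in Veh and 81.8 in KLA. Runx1 had 48 loci, 22 KLA-only and 5 Veh-only. Msr1, a scavenger receptor gene, had 9 KLA-only loci of 11, and none of the 4 Lyz2 loci were KLA-only.

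Lysosome genes had the lowest share of KLA-only loci, with 39 of 154 (25.3%, 19.1 to 32.7), and 32 Veh-only loci (20.8%, 15.1 to 27.9). Psap, the precursor of lysosomal activator proteins, had 6 Veh-only loci of 20, and Ctsd and Npc1, a protease and a cholesterol transporter, had 4 each. Ctsb had 9 shared loci of 11. A locus in an intron of Ctsz moved from a rank of 77.1 to 4.92 and held an E-box and an Sp1 motif. The exception was Npc2, where 1 of the 2 KLA-only loci was the strongest KLA-only locus of the list with a count of 624.

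Lipid and cholesterol genes had 52 of 122 loci KLA-only (42.6%, 34.2 to 51.5) and 15 Veh-only (12.3%, 7.59 to 19.3). Pparg had 21 loci, of which 8 were KLA-only, 11 shared and 2 Veh-only. A shared locus 17.7 kb upstream of Pparg moved from a rank of 68.0 to 8.98. Fabp5 had 5 Veh-only loci of 13. Ribosomal protein genes had 97 loci at 48 of 80 genes, with 34 KLA-only (35.1%, 26.3 to 45.0) and 23 Veh-only (23.7%, 16.4 to 33.1). Of these 97 loci 48.5% lay within 1 kb of a TSS, against 16.1% of all loci.

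The BALB/cJ JunD lists, which share no sample with those of C57BL/6, were closer in length at 33850 peaks in KLA and 28652 in Veh. A JunD peak in BALB/cJ KLA but not in BALB/cJ Veh was found at 42.0% of KLA-only loci (41.2 to 42.8), 11.4% of shared (10.9 to 11.9) and 13.8% of Veh-only loci (12.8 to 14.9). The opposite, a peak in BALB/cJ Veh but not KLA, was found at 7.94%, 10.4% and 31.2%. KLA-only loci exceeded Veh-only loci by 28.2 points (26.9 to 29.4) in the first and were below them in the second (difference -23.3 points, -24.7 to -21.8).

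BALB/cJ did not repeat every call. Of the KLA-only loci, 23.1% had a JunD peak in both BALB/cJ lists and 27.0% in neither, and for Veh-only loci the shares were 20.8% and 34.2%. A JunD peak in the PPARg knockout in Veh was at 15.1% of KLA-only, 58.2% of shared and 37.3% of Veh-only loci. In total 38.2% of KLA-only loci had a JunD peak in at least one of the 2 other Veh lists.

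**Figure D5:**
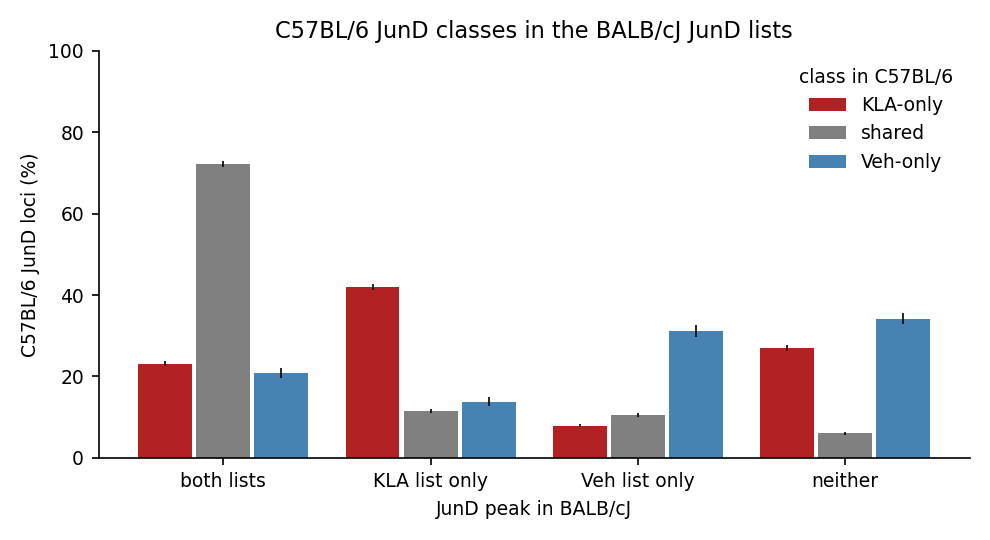
Share of C57BL/6 JunD loci of each class (vertical axis, %) by whether BALB/cJ had a JunD peak in both lists, in the KLA list only, in the Veh list only or in neither. Bars are shares with 95% Wilson intervals over loci, and the KLA list only holds 42.0% of KLA-only against 13.8% of Veh-only loci.

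Rank changes at shared loci were compared in the same way. Of the 15279 loci, 11024 had a JunD peak in both BALB/cJ lists. The BALB/cJ rank was higher in KLA than in Veh at 83.4% of loci that moved up in C57BL/6 (1714 of 2055, 81.7 to 85.0) and at 8.96% of those that moved down (72 of 804, 7.17 to 11.1), against 43.9% over all 11024. The median BALB/cJ change was 16.4 points in the first group and -25.4 in the second. Across the 11024 loci the changes in the strains had Pearson's r of 0.67 and Spearman's rho of 0.64, as a description. The points share base composition and the antibody.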

How the data were processed

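JunD ChIP-seq peak lists of C57BL/6 TGEMs after Veh or KLA were analysed with 18 further lists of the series. The submitters' processing notes name Bowtie2, HOMER and mm10, and the methods state that peaks with an IDR of 0.05 or more were removed. The authors deposited 2 values per peak, a count, which is a whole number that is not scaled to library size, and a score, which is the scaled IDR. The sources used here do not give how replicates enter a count. The 20 lists held 463 to 41573 peaks with median counts of 19.0 to 277, which sets how many loci each list can cover.

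Loci joined JunD peaks overlapping by 1 bp or more, and 30 shared loci held more than 2 peaks. At such loci the strongest peak of each list gave the count. Percentile ranks were taken by count within a list. Another factor was called present when its peak overlapped a JunD peak of the locus by 1 bp or more. Genes and TSSs were those of GENCODE vM21 (GRCm38), and sequence came from the RefSeq GRCm38 assembly. For position, 6 loci off the assembled chromosomes were left out, and for motifs 7 loci.

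Named loci were the 10 strongest KLA-only and Veh-only loci, the 10 with the largest rise and fall in rank, the 5 with the highest mean rank, and up to 4 for each gene list, from which the text gives a selection. Genes on the lists that carry single counts were picked after their values were seen. The members, lists and motifs were chosen with earlier results of these data known. Differences were computed for 45 pairs of factor and class and 27 of motif and class, without adjustment. Loci that rose and fell in rank were compared for 15 measures within deciles of a JunD list, the differences being averaged with weights from the numbers of loci (Mantel-Haenszel) and given a 95% normal interval over loci.

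The software was pysam 0.24.0, matplotlib 3.10.9, scipy 1.17.1, pandas 2.3.3 and numpy 2.4.6 in Python 3.11.15. The overlap, motif and interval functions were tested on simulated data. Alternatives were other overlap rules, an IDR of 0.01, lists of equal length, the stronger 50% of each list, quartiles by count, other windows and other annotation. Library totals, input samples and reads were not analysed here.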

Additional observations from a re-analysis of the deposited data

How the results depend on the processing

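Of 305 values recomputed under an alternative, 253 kept their direction and side of the threshold, or stayed within the range set for counts and shares, and so did 195 of 217 differences of shares over 38 comparisons. With an IDR of 0.01 there were 2101 Veh-only loci and 881 fallen loci. With lists of equal length the counts were 7743 KLA-only, 7743 Veh-only, 1536 risen and 2693 fallen, so that more loci fell than rose. With the stronger 50% of each list they were 8215 KLA-only, 7597 shared, 2227 Veh-only, 1639 risen and 955 fallen. Past a log2 count ratio of 1 from its median 981 rose and 437 fell, and with ranks among shared loci only, an alternative chosen after seeing the data, 2412 rose and 2269 fell. In that ranking Fos in KLA was at 94.1% of risen and 62.8% of fallen loci. Between risen and fallen loci, the comparison within deciles of the KLA list, also chosen after seeing the data, turned the difference for ATF3 (-4.30 points), Jun (-8.39), Fos (-5.88), Fra2 (-3.56), JunB (-12.4) and CEBPa (-4.07) in KLA, the TRE (-0.18) and promoters (6.13). Deciles of the Veh list turned it for PU.1 in KLA (9.43) and CEBPa in Veh (1.84). They kept its direction for ATF3, Jun, Fos, Fra2 and JunB in KLA. The promoter difference of KLA-only and shared loci was -0.14 points (-0.98 to 0.69) with an IDR of 0.01 and 0.27 (-0.67 to 1.20) in the stronger 50%. Between KLA-only and Veh-only loci, the CEBP motif differed by -0.44 points with an IDR of 0.01, by -1.35 in the stronger 50%, by 0.93 in the central 100 bp and by -0.32 over 1 kb from a TSS, where the CRE differed by 0.02 and Runx by -1.75. Runx differed by -1.76 with an IDR of 0.01. PU.1 in KLA differed by 10.2 points (0.84 to 20.1) in quartile 4 of each list by count. The cause was not tested. The KLA-only share of all loci was 46.2% with centres within 100 bp, 46.0% with an overlap of 50% of both peaks, 51.8% with an IDR of 0.01 and 28.3% with lists of equal length. With an IDR of 0.01 it was 68.9% for NFkB genes, 49.6% for phosphatase and immediate-early genes and 48.4% for ribosomal protein genes. With lists of equal length, to be read against 28.3%, it was 55.3% for cytokine and chemokine genes, 52.0% for NFkB genes, 28.4% for AP-1 genes, 29.1% for phosphatase and immediate-early genes, 27% for macrophage identity genes, 29.7% for lipid genes, 22.2% for ribosomal protein genes and 14.8% for lysosome genes. AP-1 genes had 34.5% in the stronger 50%. No paired analysis was possible because each treatment has 1 list, and for the same reason no replicate could be left out. The different counts of the JunD lists limit every statement on loci found in 1 list.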
